A study of Mus musculus with 6 samples.

Results

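Adipose macrophage markers are 32 mouse genes that fat macrophages express in common or that set kinds of fat macrophage apart. They were chosen by gene symbol and matched to the Ensembl identifiers of the deposited table, where 32 of 32 were found among 25894 genes, and 32 of 32 passed the filter on low values. RNA was sequenced from inguinal white adipose tissue, the subcutaneous fat pad of the groin, of 6 female C57BL/6N mice, 1 mouse to a library. The mice were 15 weeks old according to the series design. In 3 of them, here called fragmented, recovered 1 to 3, sleep was fragmented for 8 weeks and then left to recover for 2 weeks. The other 3 are labelled only as controls, here control 1 to 3. All 6 were fasted for 10 h before the tissue was taken. The comparison asks whether macrophage transcripts of the fat pad differ from controls after the recovery period.

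Fat holds macrophages of several origins. Resident macrophages settle early, renew in place and carry scavenger and complement genes. Monocytes of the blood enter through the chemokine receptor encoded by Ccr2 and become recruited macrophages, and cells that take up lipid around dying adipocytes turn on a lipid-associated set of genes that includes Trem2, Cd9 and Lgals3. The 32 genes were read in 4 kinds: 14 pan-macrophage genes, 10 resident genes, 2 recruited genes and 6 lipid-associated genes. Several of them are not made by macrophages alone. Cd9 and Lgals3 are also expressed by epithelial and stromal cells, Laptm5 and Ctss by lymphocytes or dendritic cells, and Itgam by neutrophils.

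No macrophage marker passed the threshold. Of 22290 genes tested with limma, 0% passed an adjusted p of 0.05, and 0 of 32 markers did, with adjusted p-values from 0.697 to 0.975. On reads recovered from the table, edgeR and DESeq2 also called 0 genes. At an unadjusted p under 0.05 edgeR had 754 of 16141 genes tested and DESeq2 1186 of 25894. At that unadjusted level limma had 2 of 32 markers, against 5.39% of all genes: C1qa on the higher side, where 3.24% of all genes lay, and Ccr2 on the lower side, where 2.14% lay. Ccr2 was the marker whose groups did not overlap, with all fragmented, recovered mice below all controls, as for 3.58% of all genes. The opposite separation, with the lowest fragmented, recovered mouse higher than the highest control, was seen for 0 of 32 markers, against 5.02% of all genes. The split of unadjusted calls differed with the scaling and with the test. Limma had 723 genes higher and 478 lower on the deposited values, and 1007 higher and 211 lower after library-size scaling. With TMM, the scaling that edgeR uses, limma had 770 higher and 428 lower. The tests on recovered reads leaned the other way, with 273 higher and 481 lower by edgeR and 436 higher and 750 lower by DESeq2. The median log2 difference (fragmented, recovered minus control, on log2(value + 1)) was -0.16 over the 32 markers, 13 higher and 19 lower. The tally and the sign of the median turned with the B cell level of each library in the fit (18 higher and 14 lower, median 0.11), without fragmented, recovered 3 (19 and 13, median 0.19) and without control 2 (20 and 12, median 0.12). Over all genes tested the median was 0.02, with 51.6% above 0 and 48.4% below.

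**Figure D1:**
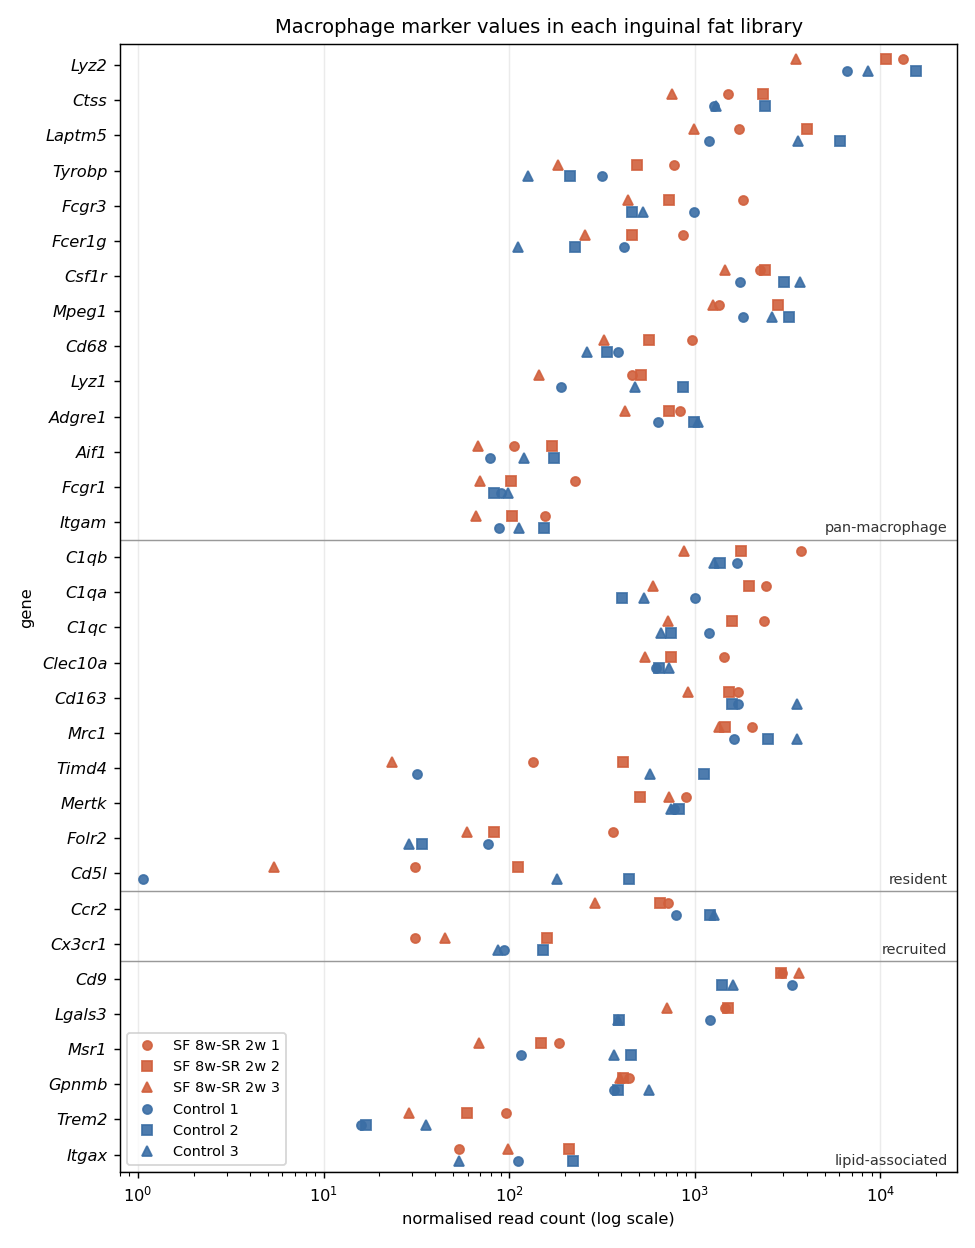
Normalised read count (horizontal log scale) of each marker (rows, by kind) in the 3 fragmented, recovered libraries (SF 8w-SR 2w, upper points of a row) and the 3 control libraries (lower points). Points of the groups interleave in every row except Ccr2, and Timd4 and Cd5l spread the widest, from 23.5 to 1120.2 and from 1.07 to 442.

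The libraries held 15610201 to 19703569 recovered reads. They stood apart within both groups. Fragmented, recovered 1 had the highest value for 13 of 32 markers, and fragmented, recovered 3 had the lowest for 18. Control 2 was highest for 10 markers and control 3 for 6, while control 1 was highest for 0. Lymphocyte genes split the libraries across the groups: the level of 14 B and plasma cell markers (median of log2 values centred over the libraries) was -2.73, 3.27 and -3.35 in the fragmented, recovered mice and -3.65, 4.27 and 2.74 in controls. All 14 had reads, and their summed normalised value ran from 1870.8 to 37578 in the fragmented, recovered mice and from 2157 to 92852 in controls. Muscle and fat content varied as well: 9 skeletal muscle markers summed to 91724, 2172 and 392 in fragmented, recovered mice and 1032, 12077 and 186 in controls, with none at 0 in all libraries. The level of 10 adipocyte markers was 0.58, 0.07 and -0.07 in fragmented, recovered mice and 0.35, -0.54 and -0.41 in controls. The B cell level was added to the fit in 1 alternative, given below where it turned a marker's direction or moved the markers that follow lymphocyte genes. It moved others too: Lyz2 from -0.28 to -0.015, Csf1r from -0.45 to -0.24 and Msr1 from -1.11 to -0.74. Trem2, from 1.32 to 1.43, and Mertk, from -0.17 to -0.25, moved away from 0. The part of muscle and fat content in the marker values was not tested. In bulk tissue fewer cells of a type and less RNA per cell cannot be told apart.

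The pan-macrophage genes did not move one way. Adgre1, an adhesion receptor whose antibody is a standard stain for mouse macrophages, had normalised values of 831, 726 and 419.8 in fragmented, recovered mice and 634, 996 and 1045 in controls. Csf1r, the receptor for the growth factor on which macrophages depend, had 2232, 2383 and 1454 in fragmented, recovered mice and 1750.0, 3025 and 3692 in controls. For both genes control 1 lay within the range of the fragmented, recovered mice, while controls 2 and 3 lay above all of them. The log2 differences were -0.46 (SE 0.33, limma adjusted p = 0.706) for Adgre1 and -0.45 (SE 0.33, limma adjusted p = 0.708) for Csf1r.

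Cd68, a lysosomal glycoprotein used as a general macrophage stain, had its highest values in fragmented, recovered mice, with 960.0, 564 and 325 in fragmented, recovered mice and 386, 336 and 263 in controls. Only fragmented, recovered 3 lay inside the control range. Its log2 difference was 0.79 (SE 0.39, limma adjusted p = 0.697). The signalling adaptors Fcer1g and Tyrobp, small membrane proteins that carry activating motifs for Fc receptors and for Trem2, were close to Cd68 in pattern. Fcer1g had 864, 457 and 257 in fragmented, recovered mice and 414, 225 and 111 in controls. Tyrobp had 774, 490.0 and 184 in fragmented, recovered mice and 314, 214 and 127 in controls. In both genes the 3 mice of a group spanned more than a 2-fold range, and the groups overlapped through fragmented, recovered 3. The log2 differences of 1.09 (SE 0.54) for Fcer1g and 1.01 (SE 0.53) for Tyrobp had a limma adjusted p = 0.697 each.

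The Fc receptors Fcgr3 and Fcgr1, which bind antibody-coated particles, were high in 1 mouse. Fcgr3 had 1819, 725 and 439 in fragmented, recovered mice and 987, 459 and 524 in controls. Fcgr1 had 226, 102 and 69.5 in fragmented, recovered mice and 90.6, 82.5 and 99.1 in controls. Without fragmented, recovered 1 their log2 differences turned from 0.43 and 0.37 to -0.13 and -0.10. Itgam, the alpha chain of the complement receptor CR3, and Aif1, an actin-bundling protein of macrophages, had log2 differences of -0.17 (SE 0.44) and -0.14 (SE 0.47).

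Lyz2, which encodes the lysozyme of macrophages, was the most abundant marker per length, at 6967 normalised reads per kb of transcript in fragmented, recovered mice and 7802 in controls. The counts were 13273, 10727 and 3504 in fragmented, recovered mice and 6605, 15619 and 8577 in controls, with a log2 difference of -0.28 (SE 0.51, limma adjusted p = 0.869). Lyz1, known as the lysozyme of Paneth cells of the gut, had 459, 513 and 144 in fragmented, recovered mice and 191, 861 and 473 in controls. It came to 3.46%, 4.78% and 4.12% of Lyz2 in fragmented, recovered mice and 2.89%, 5.51% and 5.52% in controls. The genes are close copies, so reads could be split between them, and the Lyz1 values are uncertain. Over 444 coding bases they are 95.0% identical, and 16.1% of the 50-base windows of the Lyz1 transcript occur letter for letter in that of Lyz2. The first 120 coding bases (GENCODE M21, GRCm38, chromosome 10) are shown to make the 11 differences visible, as capitals.
Lyz1: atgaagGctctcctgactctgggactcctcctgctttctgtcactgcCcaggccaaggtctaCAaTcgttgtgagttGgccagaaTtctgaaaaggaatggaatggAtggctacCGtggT
Lyz2: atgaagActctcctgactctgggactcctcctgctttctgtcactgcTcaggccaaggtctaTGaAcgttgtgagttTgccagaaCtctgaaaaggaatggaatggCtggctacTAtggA

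Laptm5, Mpeg1 and Ctss are also expressed by other immune cells. Laptm5, a lysosomal membrane protein of blood cells, had 1730.3, 4038 and 994 in fragmented, recovered mice and 1189, 6028 and 3605 in controls. Its high libraries, fragmented, recovered 2 and controls 2 and 3, were those high in B cell markers. Mpeg1, a pore-forming protein that kills engulfed bacteria, had 1358, 2795 and 1259.5 in fragmented, recovered mice and 1823, 3234 and 2610.1 in controls. The log2 differences were -0.63 (SE 0.62) for Laptm5 and -0.56 (SE 0.35) for Mpeg1, with limma adjusted p-values of 0.761 and 0.697. With the B cell level in the fit they were -0.067 for Laptm5 and -0.29 for Mpeg1, and leaving out 1 mouse at a time gave -1.29 to -0.12 for Laptm5, nearest 0 without control 2. Ctss, a protease that prepares peptides for MHC class II, had a log2 difference of -0.19 (SE 0.41). The differences of Ctss, Aif1, Lyz1, Cd5l and Itgax were positive when the B cell level of each library was added to the fit, at 0.0734 for Ctss, 0.15 for Aif1, 0.055 for Lyz1, 0.65 for Cd5l and 0.17 for Itgax.

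Among the resident genes, the complement chains came out on the higher side and the scavenger receptors on the lower. C1qa, C1qb and C1qc encode the 3 chains of complement C1q, which starts the classical pathway and tags dying cells for removal. C1qa had 2408, 1971 and 596 in fragmented, recovered mice and 999.7, 406 and 531 in controls. Its first and second fragmented, recovered mice lay above every control, and the third lay between controls. The log2 difference was 1.24 (SE 0.52, unadjusted p = 0.0404, limma adjusted p = 0.697). C1qc had 2369, 1588 and 721 in fragmented, recovered mice and 1191, 743 and 657 in controls, a log2 difference of 0.74 (SE 0.42). C1qb had 3752, 1779.5 and 875 in fragmented, recovered mice and 1679, 1372 and 1265 in controls, a log2 difference of 0.33 (SE 0.45). The chains share fragmented, recovered 1 as the highest library, yet the ratio of C1qa to C1qb was not fixed, at 0.642, 1.11 and 0.681 in fragmented, recovered mice and 0.596, 0.296 and 0.420 in controls. For C1qb the direction turned to -0.20 without fragmented, recovered 1.

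The 250 bases before and 50 bases after the RefSeq start of C1qb and C1qc (GRCm38.p6) are shown because these neighbouring genes had the same order of libraries at the top. Capitals mark GAGGAA on either strand (TTCCTC on the strand shown), the PU box bound by the macrophage transcription factor PU.1. Of 26 markers with an entry in the RefSeq promoter table, 12 (46.2%) held the motif in any of their windows. Counted by window, 13 of 28 (46.4%) held it, against 28.3% of all 32851 promoters of that length. The difference was not tested. A match is a description of the letters and not of binding.
C1qb, chr4:136886151-136886450, minus strand: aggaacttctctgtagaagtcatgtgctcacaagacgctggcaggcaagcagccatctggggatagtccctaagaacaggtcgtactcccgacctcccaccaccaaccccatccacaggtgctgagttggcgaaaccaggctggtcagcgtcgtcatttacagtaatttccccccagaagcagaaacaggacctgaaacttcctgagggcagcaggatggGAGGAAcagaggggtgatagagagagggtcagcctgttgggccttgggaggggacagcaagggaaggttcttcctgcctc
C1qc, chr4:136892865-136893164, minus strand: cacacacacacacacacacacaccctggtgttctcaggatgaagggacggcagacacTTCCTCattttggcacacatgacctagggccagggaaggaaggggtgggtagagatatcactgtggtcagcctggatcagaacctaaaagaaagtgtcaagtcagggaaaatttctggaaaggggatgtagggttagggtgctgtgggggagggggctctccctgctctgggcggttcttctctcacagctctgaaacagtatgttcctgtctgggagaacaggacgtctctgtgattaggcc

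Mrc1, the mannose receptor CD206, had 2044, 1447 and 1354 in fragmented, recovered mice and 1634, 2480.0 and 3537 in controls. Cd163, the haemoglobin scavenger receptor, had 1708, 1527 and 919 in fragmented, recovered mice and 1699, 1596 and 3536 in controls. Control 3 was the highest library for both genes. The log2 differences were -0.61 (SE 0.31) for Mrc1 and -0.67 (SE 0.36) for Cd163, each with a limma adjusted p = 0.697. Mertk, a receptor for engulfing dying cells, was steady, with 902, 507 and 727 in fragmented, recovered mice and 769.5, 826 and 745 in controls, and a log2 difference of -0.17 (SE 0.27). Clec10a, a galactose-binding lectin of alternatively activated macrophages and dendritic cells, had 1444, 741 and 541 in fragmented, recovered mice and 621, 641 and 725 in controls. Its log2 difference was 0.33 (SE 0.35) and turned to -0.06 without fragmented, recovered 1. Folr2, a folate receptor of resident macrophages, had 362, 82.7 and 59.6 in fragmented, recovered mice and 76.7, 33.9 and 29.0 in controls. Control 1 lay above the third fragmented, recovered mouse and close to the second. Its log2 difference of 1.50 (SE 0.70, limma adjusted p = 0.697) was the furthest above 0 of the 32 markers.

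Timd4 and Cd5l followed the lymphocyte-rich libraries in both groups. Timd4 encodes a receptor for phosphatidylserine on long-lived resident macrophages, and Cd5l a secreted protein of tissue and lymphoid macrophages. Timd4 had 135, 409.6 and 23.5 in fragmented, recovered mice and 31.97, 1120.2 and 576 in controls. Cd5l had 31.1, 112 and 5.42 in fragmented, recovered mice and 1.07, 442 and 180.5 in controls, where the value in control 1 was 1 read. Fragmented, recovered 2 and controls 2 and 3 were the 3 highest libraries for both genes. Siglec1, Marco, Spic and Cxcl13 were listed here as 4 lymph node macrophage markers, and these libraries also had the highest level of that list. It was -0.94, 1.23 and -3.56 in fragmented, recovered mice and -1.99, 2.79 and 1.91 in controls. Cxcl13 by itself was higher in fragmented, recovered 1 than in fragmented, recovered 2, at 591 and 467. Siglec1, the sialoadhesin of sinus macrophages, had 516, 832 and 369 in fragmented, recovered mice and 353, 1869.6 and 1437 in controls. The log2 differences of -1.32 (SE 1.30) for Timd4 and -0.95 (SE 1.80) for Cd5l had limma adjusted p-values of 0.761 and 0.874. With the B cell level in the fit Timd4 was at -0.15, and leaving out 1 mouse at a time gave -2.86 without control 1 to -0.23 without fragmented, recovered 3. None of the 4 was at 0 in all libraries, and their sum ran from 390.0 to 1783 in fragmented, recovered mice and from 390.1 to 4702 in controls. The part of lymph node tissue in these values was not tested.

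**Figure D2:**
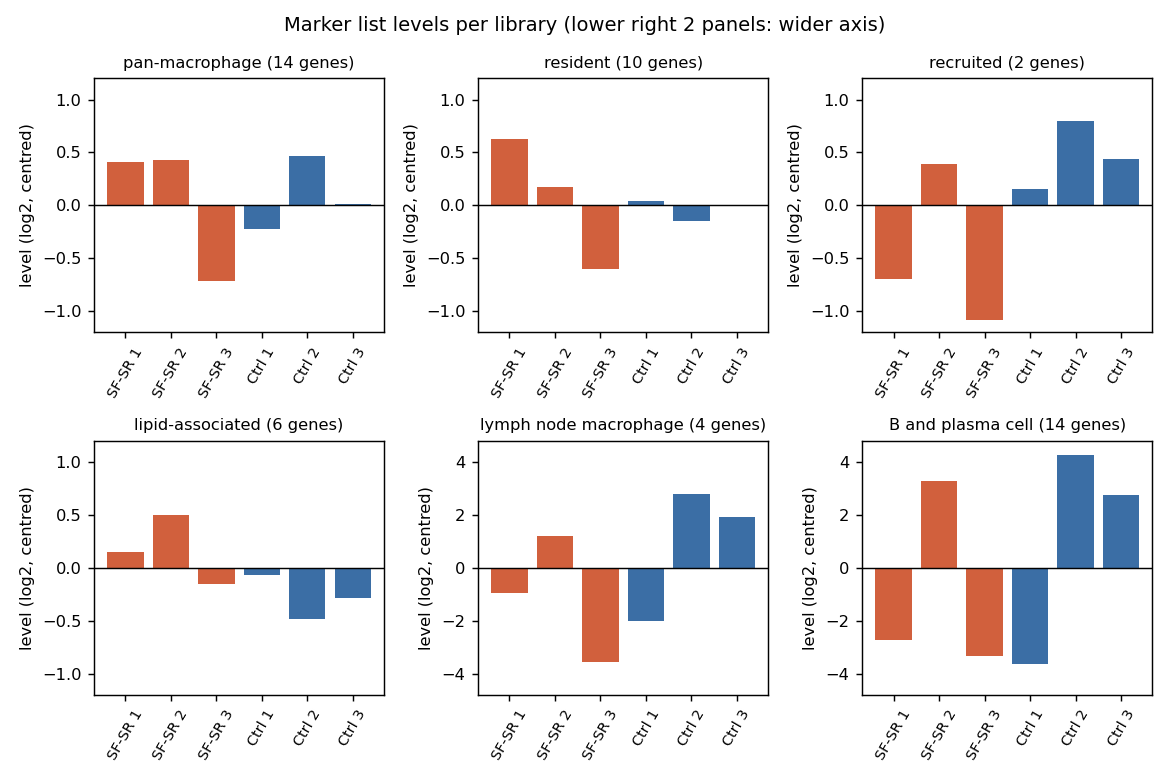
Level of each marker list (vertical axis: median over the list of log2(value + 1) minus its mean over the 6 libraries) in the fragmented, recovered (SF-SR) and control (Ctrl) libraries. The 2 lymphoid panels have a wider axis; their high bars are fragmented, recovered 2 and controls 2 and 3, while the resident list is highest in fragmented, recovered 1, followed by fragmented, recovered 2.

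The recruited genes were on the lower side. Ccr2, the receptor that brings monocytes out of the blood, had 717, 647 and 291 in fragmented, recovered mice and 795, 1200.4 and 1269.9 in controls. The groups did not overlap, but the gap between the highest fragmented, recovered mouse and control 1 was small. Its mean was 552 ± 229 in fragmented, recovered mice and 1088 ± 256 in controls (SD, n = 3 each), a log2 difference of -1.05 (SE 0.37, unadjusted p = 0.0179, limma adjusted p = 0.697). Leaving out 1 mouse at a time gave log2 differences from -1.30 to -0.65. Cx3cr1, the fractalkine receptor of patrolling monocytes, had 31.1, 160.1 and 45.1 in fragmented, recovered mice and 93.8, 151 and 86.9 in controls. Fragmented, recovered 2 was above every control, and the difference of -0.80 (SE 0.61) had a limma adjusted p = 0.717.

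Lipid-associated genes were divided. Trem2, a lipid receptor that signals through Tyrobp and drives this state, had 96.4, 59.2 and 28.9 in fragmented, recovered mice and 15.99, 17.0 and 35.6 in controls. It was low in all libraries, and the lowest fragmented, recovered mouse lay below control 3. Its log2 difference was 1.32 (SE 0.63, limma adjusted p = 0.697). Cd9, a tetraspanin, had 2949, 2928 and 3629 in fragmented, recovered mice and 3324, 1405 and 1609.7 in controls, and Lgals3, which encodes galectin-3, had 1446, 1506 and 711 in fragmented, recovered mice and 1201, 391 and 388 in controls. In both genes control 1 was at the level of the fragmented, recovered mice and controls 2 and 3 were below it. The log2 differences were 0.69 (SE 0.33) for Cd9 and 1.03 (SE 0.47) for Lgals3. Without control 1, Cd9 passed the threshold at 1.07 (limma adjusted p = 0.0400), while 2.53% of all genes passed on the higher side and 1.26% on the lower in that fit. The 10 mammary epithelium markers, none of them at 0 in all libraries, split the controls alike: their level was 0.16, 0.71 and 0.90 in fragmented, recovered mice and 0.89, -1.20 and -0.93 in controls. Their sum ran from 25188 to 36748 in fragmented, recovered mice and from 9253 to 39978 in controls. The part of epithelium in Cd9 and Lgals3 was not tested.

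The other lipid-associated genes did not follow Trem2. Gpnmb, a glycoprotein of lipid-loaded macrophages, had 441, 413 and 394 in fragmented, recovered mice and 367, 385 and 569 in controls, with the narrowest range of the 32 markers. Itgax, which encodes CD11c of dendritic cells and inflammatory macrophages, had 53.9, 211 and 98.4 in fragmented, recovered mice and 112, 220.4 and 53.5 in controls. Msr1, scavenger receptor A, had 187, 148 and 68.6 in fragmented, recovered mice and 115, 453 and 367 in controls. The log2 differences were -0.06 (SE 0.27), -0.08 (SE 0.63) and -1.11 (SE 0.56), with limma adjusted p-values of 0.955, 0.975 and 0.697.

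**Figure D3:**
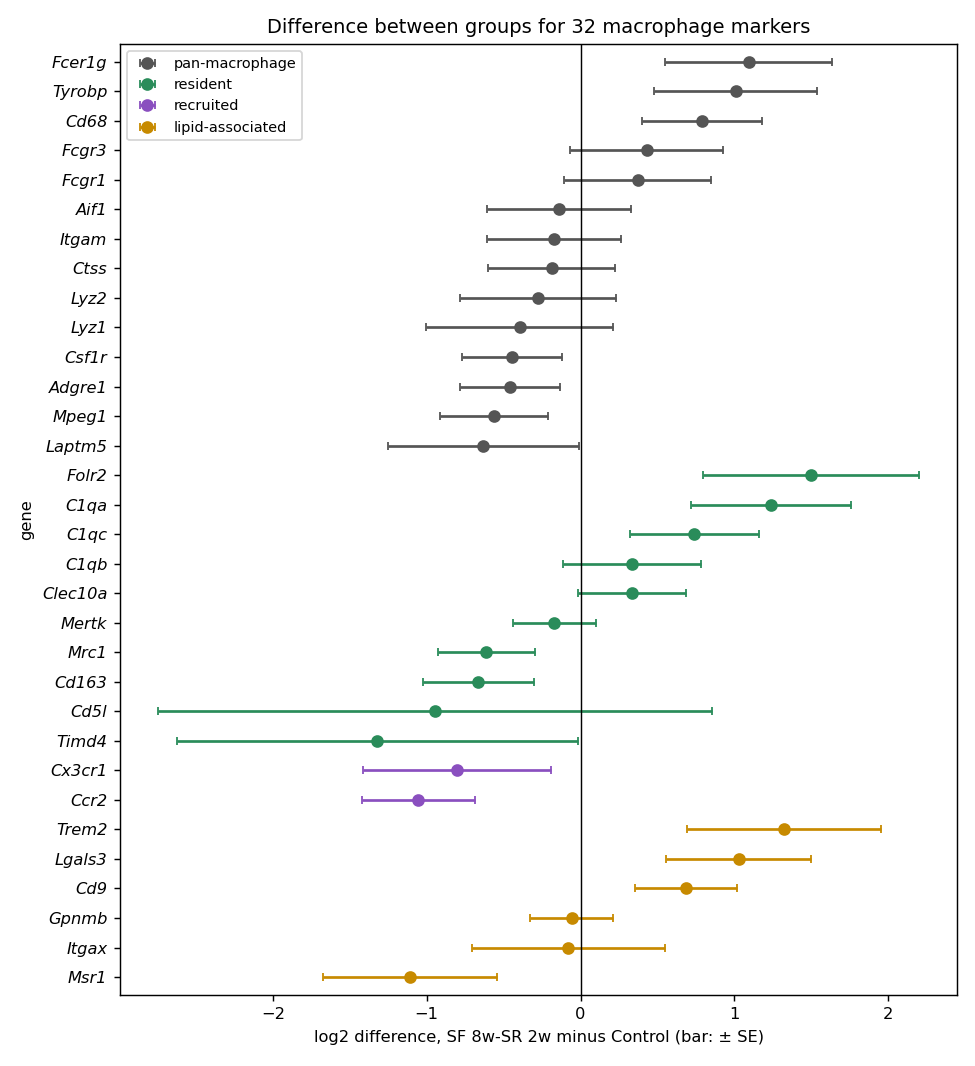
Log2 difference, fragmented, recovered (SF 8w-SR 2w) minus control, with its SE (bars) for each marker, by kind. Pan-macrophage, resident and lipid-associated genes lie on both sides of 0, and both recruited genes lie below it.

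The kinds were then set side by side. The median log2 difference was -0.18 over 14 pan-macrophage genes (5 higher, 9 lower), 0.08 over 10 resident genes (5 higher, 5 lower), -0.93 over the 2 recruited genes and 0.31 over 6 lipid-associated genes (3 higher, 3 lower). Within a library, the recruited level minus the pan-macrophage level was -1.11, -0.04 and -0.37 in fragmented, recovered mice and 0.38, 0.33 and 0.43 in controls, so the groups did not overlap. The recruited level rests on 2 genes and includes Ccr2, whose groups were already apart, while those of Cx3cr1 overlapped. No share over all genes was obtained for this difference of levels. With the trends on transcript length and GC content removed, as described further on, these values were -0.74, 0.39 and -0.36 in fragmented, recovered mice and 0.58, 0.13 and 0.00 in controls, with overlap. The recruited level minus the resident level was -1.33, 0.22 and -0.48 in fragmented, recovered mice and 0.12, 0.94 and 0.45 in controls, and here the groups overlapped through fragmented, recovered 2. The lipid-associated level minus the resident level was -0.48, 0.33 and 0.45 in fragmented, recovered mice and -0.11, -0.33 and -0.28 in controls, with overlap. For the resident minus the pan-macrophage level the values were 0.22, -0.25 and 0.11 in fragmented, recovered mice and 0.26, -0.61 and -0.02 in controls. These lists were composed with results of the data known, so the levels are descriptions without a test.

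Relative to Adgre1 of the same library, 4 of the other 31 markers did not overlap between groups, 3 above and 1 below, where 5.17% of all genes lay above and 0.534% below. This ratio was chosen after the values were seen. Ccr2 was 0.863, 0.891 and 0.692 times Adgre1 in fragmented, recovered mice and 1.25, 1.21 and 1.22 times in controls. The control ratios were close together although control 1 had lower counts of both genes than controls 2 and 3. Trem2 was 0.116, 0.0815 and 0.0688 times Adgre1 in fragmented, recovered mice and 0.0252, 0.0170 and 0.0341 times in controls. Cd68 was 1.15, 0.777 and 0.774 times Adgre1 in fragmented, recovered mice and 0.608, 0.337 and 0.252 times in controls, and Clec10a also lay above in all 3. Csf1r, another pan-macrophage gene, differed from Adgre1 by a log2 ratio of 1.64 ± 0.19 in fragmented, recovered mice and 1.63 ± 0.18 in controls (SD, n = 3 each). With Csf1r as the denominator, Ccr2, Trem2 and Cd68 were again apart, with 3.9% of all genes above and 0.745% below, and Clec10a overlapped. Because Csf1r kept a like ratio to Adgre1 in both groups, this second denominator largely repeats the first. Tyrobp is a pan-macrophage gene on the higher side. Relative to it, Trem2 was 0.1245, 0.1207 and 0.1569 in fragmented, recovered mice and 0.0508, 0.0794 and 0.2807 in controls, with overlap.

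**Figure D4:**
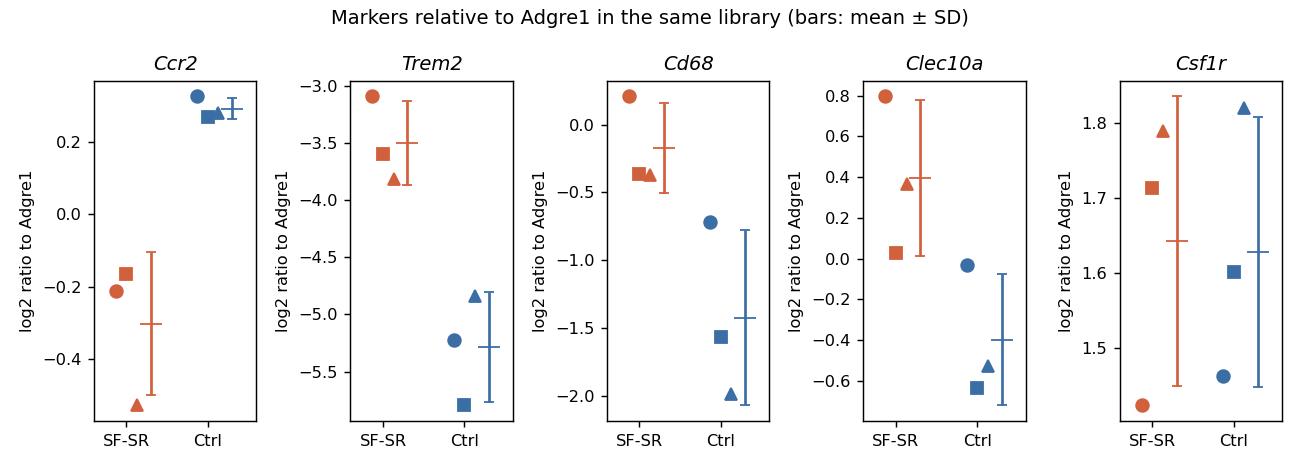
Log2 ratio of 5 markers to Adgre1 in the same library (points; circles, squares and triangles are replicates 1 to 3; bars are mean ± SD, n = 3) in fragmented, recovered (SF-SR) and control (Ctrl) mice, each panel on its own axis. Ccr2 lies lower and Trem2, Cd68 and Clec10a lie higher in the fragmented, recovered mice, and Csf1r does not separate the groups.

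The promoter windows of Trem2, Cd68 and Ccr2 are shown in the same way because, on the deposited values, their ratios to Adgre1 and to Csf1r separated the groups. Trem2 and Cd68 hold GAGGAA or TTCCTC in the window, and Ccr2 holds none.
Trem2, chr17:48346151-48346450, plus strand: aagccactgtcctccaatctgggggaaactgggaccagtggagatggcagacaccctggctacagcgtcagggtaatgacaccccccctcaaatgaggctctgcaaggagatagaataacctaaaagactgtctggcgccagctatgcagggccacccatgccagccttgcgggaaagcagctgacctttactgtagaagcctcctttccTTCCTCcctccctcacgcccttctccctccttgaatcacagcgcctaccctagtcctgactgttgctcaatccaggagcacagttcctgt
Cd68, chr11:69666121-69666420, minus strand: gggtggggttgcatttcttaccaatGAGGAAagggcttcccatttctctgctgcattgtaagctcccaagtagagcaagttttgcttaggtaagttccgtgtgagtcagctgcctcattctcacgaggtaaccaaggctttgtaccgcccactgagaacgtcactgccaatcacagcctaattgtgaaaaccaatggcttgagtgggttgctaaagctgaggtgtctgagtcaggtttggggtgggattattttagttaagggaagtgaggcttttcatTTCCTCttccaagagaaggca
Ccr2, chr9:124101933-124102232, plus strand: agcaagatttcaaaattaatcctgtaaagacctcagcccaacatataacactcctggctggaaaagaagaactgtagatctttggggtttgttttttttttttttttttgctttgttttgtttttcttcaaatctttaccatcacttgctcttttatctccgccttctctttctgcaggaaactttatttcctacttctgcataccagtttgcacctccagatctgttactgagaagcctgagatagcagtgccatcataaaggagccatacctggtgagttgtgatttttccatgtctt

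Transcript length and base composition moved with the differences. Of 17 markers with a transcript under 2000 bases, 12 had a positive difference and the median was 0.69. Of 15 longer markers, 1 had a positive difference and the median was -0.56. Across the 32 markers Spearman's rho of the log2 difference was -0.69 on transcript length and 0.67 on GC content, against -0.22 and 0.39 across all 22262 genes with both values. Genes are not independent replicates, and they share the 6 libraries. A trend on both properties also ran inside the control group, between control 1 and controls 2 and 3. Controls 2 and 3 enter this contrast and the group difference with opposite signs, so it is not a separate observation. Over the markers, rho of controls 2 and 3 minus control 1 was 0.43 on length and -0.44 on GC content. Across all genes with both values it was 0.256 and -0.275. When the trends of each library on length and GC content were removed over all genes, the differences became -0.50 for Ccr2, 0.75 for Trem2, 0.59 for C1qa, 0.41 for Cd68, 0.71 for Fcer1g and 0.51 for Tyrobp, and C1qb turned to -0.23. The markers' differences still followed both properties after this step, with a rho of -0.52 on length and 0.47 on GC content. Across all genes rho was -0.004 and 0.002, which the step fixes near 0 because the trends were fitted over these same genes. Those values are therefore no background for the markers. The ratio of Ccr2 to Adgre1 then differed by -0.14 on the log2 scale and overlapped between groups, as did Trem2 at 1.11. Cd68 at 0.77, and C1qa, C1qc and Tyrobp, lay above in all fragmented, recovered mice, where 3.61% of all genes lay above and 0.696% below. Relative to Csf1r after the same step, Cd68 and Trem2 lay above, with 4.42% of all genes above and 0.517% below. The ratio of Ccr2 to Csf1r then differed by 0.05 on the log2 scale, turned in direction, and overlapped between groups. The length split, the split of the controls, the trends and the ratios to Adgre1, Csf1r and Tyrobp were chosen after the values were seen.

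**Figure D5:**
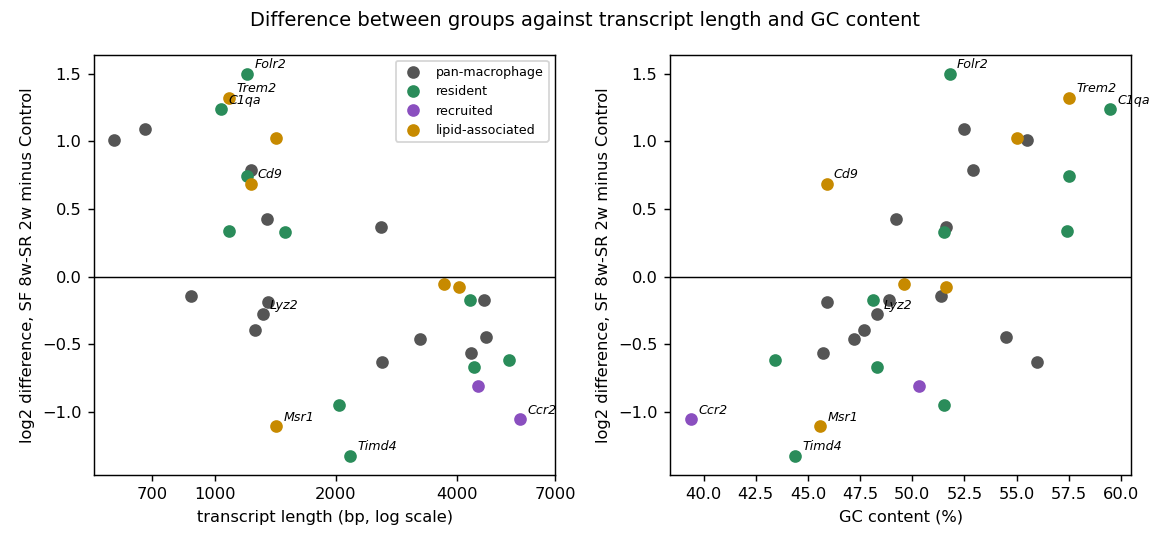
Log2 difference, fragmented, recovered (SF 8w-SR 2w) minus control, of the 32 markers (points, coloured by kind) against transcript length (left, log scale) and GC content of the transcript (right). C1qa, short and GC-rich, lies above 0 and Ccr2, long and AT-rich, below it, while the short Msr1 also lies below.

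Genes outside the 32 that belong to the same programmes gave no call either, with 0 of each list passing an adjusted p of 0.05 by limma. Where groups are said not to overlap in this and the next paragraph, 5.02% of all genes lay above and 3.58% below. Genes named for a small p separate more readily than others. Of 14 other resident macrophage genes 9 were higher and 5 lower, with a median log2 difference of 0.14. The genes named from this and the following lists are the 2 most abundant of a list, by mean value without division by length, and the 2 with its smallest p. Gas6, a ligand of Mertk, had 6621, 3197 and 3904 in fragmented, recovered mice and 3811, 1384 and 1742 in controls, a difference of 1.06 (SE 0.41). Igf1, a growth factor that resident macrophages and adipose stroma secrete, had 2973, 1454 and 2544 in fragmented, recovered mice and 2822, 3686 and 4951 in controls, a difference of -0.74 (SE 0.33). Selenop, a selenium carrier, was the most abundant of the list and lay on the lower side too, at -0.50 (SE 0.38). Of 12 other monocyte genes 4 were higher and 8 lower, with a median of -0.65. Nr4a1, the nuclear receptor of patrolling monocytes and an immediate early gene, had 289, 157 and 583 in fragmented, recovered mice and 103, 135 and 116 in controls, groups that did not overlap, and a difference of 1.34 (SE 0.46). Chil3, a lectin of monocytes and neutrophils, had 20.7, 69.8 and 3.61 in fragmented, recovered mice and 24.5, 1174 and 184 in controls, so 1 control carried most of its signal, and its difference was -3.20 (SE 1.34). Hp, haptoglobin, which adipocytes also make, had a difference of 0.67 (SE 0.48), and Fn1, fibronectin, one of -0.50 (SE 0.29), with no overlap for Fn1. Of 14 other lipid-associated genes 9 were higher, with a median of 0.38. Apoe, the lipid carrier that macrophages and adipocytes secrete, had 38657, 30822 and 14667 in fragmented, recovered mice and 21286, 9079 and 7976 in controls, a difference of 1.17 (SE 0.47). Lpl, lipoprotein lipase, which adipocytes make in bulk, had -0.58 (SE 0.52), with all fragmented, recovered mice below all controls. Cd36, a fatty acid receptor, had -0.25 (SE 0.44), and Plin2, a lipid droplet coat protein, had 0.44 (SE 0.31).

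Growth factor, chemokine and activation genes lay on both sides of 0. Over 14 genes of the Csf1 receptor axis and macrophage transcription factors the median log2 difference was -0.12. Cebpb, a transcription factor of inflammatory macrophages and of adipocytes, had 782, 1038 and 2063 in fragmented, recovered mice and 1022, 274 and 273 in controls. Mitf, a regulator of lysosomal genes, had 398, 243 and 387 in fragmented, recovered mice and 426, 683 and 1003 in controls. The groups did not overlap for Mitf. Neither gene passed, with differences of 1.48 (SE 0.54) and -0.98 (SE 0.36), each at a limma adjusted p = 0.697. Maf, a transcription factor of resident macrophages, was at -0.50 (SE 0.27), and Nr1h3, the oxysterol receptor LXR alpha, at 0.51 (SE 0.37). Chemokine and chemokine receptor genes of macrophage entry had a median of 0.53, with 8 of 12 higher. Cxcl12 and Ccl6, its most abundant genes, had differences of -0.22 (SE 0.28) and 0.27 (SE 0.56). Cx3cl1, the ligand of Cx3cr1, had 0.75 (SE 0.47). Classical activation genes had a median of -0.11 with 5 of 12 higher, and alternative activation genes one of 0.04 with 7 of 12 higher. The 4 classical genes named by the rule, Cxcl9, Irf1, Socs3 and Ptgs2, had differences of 0.49 (SE 0.31), 0.49 (SE 0.36), 0.81 (SE 0.38) and 2.20 (SE 1.06). Ptgs2, which encodes a prostaglandin synthase, was low in all libraries, with 23.9, 18.2 and 16.3 in fragmented, recovered mice and 3.20, 19.2 and 0 in controls. Tgm2, a transglutaminase induced in alternative activation, had 6851, 5835 and 11218 in fragmented, recovered mice and 6116, 2880.2 and 3735 in controls, a difference of 0.92 (SE 0.35). Pparg, the nuclear receptor of adipocytes and alternative activation, was at 0.06 (SE 0.33). Dendritic cell markers had a median of -0.68, with 9 of 12 lower. Bst2, an interferon-induced protein of plasmacytoid dendritic cells, lay opposite to the median of its list, with 1381, 1104 and 580 in fragmented, recovered mice and 826, 361 and 343 in controls and a difference of 1.04 (SE 0.42). The abundant Fscn1, an actin-bundling protein, and Dpp4, a peptidase, had 0.42 (SE 0.48) and -0.63 (SE 0.43). Cd209a, which is also in the alternative activation list, a lectin of monocyte-derived dendritic cells, had 131, 115 and 120.1 in fragmented, recovered mice and 184, 177 and 258 in controls, groups that did not overlap, and a difference of -0.74 (SE 0.32, limma adjusted p = 0.697).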

How the data were processed

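Per the submitters' processing notes, CASAVA, HISAT2 2.0.5, featureCounts 1.5.0-p3 and the build mm8 were used, with no roles given. The deposited table holds a signal value per gene and library; its size-factor step is not given in the sources used here. Every column was a whole multiple of its smallest value above 0 (100% of values within 0.02 of a whole number), so whole reads were recovered, 15610201 to 19703569 per library. The main test was limma 3.58.1 in R 4.3.3, its variance prior trended on mean level, on log2(value + 1) for 22290 genes with a mean of at least 1, two-sided, with Benjamini-Hochberg adjustment over all of them; fold changes on this scale understate those of low genes. edgeR 4.0.16 and DESeq2 1.42.0 on recovered reads were alternatives, as were other scalings and pseudocounts of 0.1 and 10. Further alternatives were no filter or a mean of at least 10, library weights, a B cell covariate, a replicate block and leaving out each mouse. The tests were also run on simulated data, with planted changes larger than any marker difference of the main fit. That run does not check them at the size of the marker differences. Symbols matched all but 33 identifiers. Lengths and GC content came from 1 GENCODE M21 transcript per gene, known for 99.87% of genes tested, and for 32 of 32 markers; spline trends (4 degrees of freedom) were subtracted per library in 1 alternative. Only promoter windows carry coordinates, in GRCm38.p6. The markers, kinds and other lists were chosen with earlier results of these data known, so no list has a test. All 32 markers are reported, and of the 8 related macrophage and dendritic lists the 2 most abundant genes and the 2 with the smallest p, except 1 gene that is not reported here. Abundance of the 32 markers was ranked per kb of transcript. In the other lists the most abundant genes were picked by mean value, without division by length. Ratios of one gene to another use unscaled values and are compared only between libraries. Mice are the replicates; the deposited values carry no interval of their own beyond the spread between mice.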

Additional observations from a re-analysis of the deposited data

How the results depend on the processing

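Across 18 alternatives, 547 of 576 marker values kept their direction and stayed short of the threshold, 28 turned direction and 1, Cd9 without control 1, passed. No filter, a mean of at least 10 and the replicate block leave each marker's log2 difference as in the main fit. These alternatives could change only its p-value, so their values could not turn direction. Of 32 markers, 19 kept their direction under every alternative run; they include Ccr2, C1qa, C1qc, Trem2, Folr2, Cd68, Cd9, Lgals3, Adgre1, Csf1r, Mrc1 and Cd163. The count of 0 genes held in every alternative except without control 1, which gave 844, 563 higher and 281 lower, so leaving out 1 mouse at a time gave 0 to 844. Genes at an unadjusted p under 0.05 numbered 754 by edgeR, 4188 with library weights (control 1 had the lowest weight, 0.377), 738 with GC content and length trends removed, an alternative chosen after seeing the data, and 448 to 5431 without 1 mouse. The labels state no pairing, and same-numbered mice were not treated as pairs in the main test. Their deviations from the group means correlated at 0.177, 0.393 and 0.042, and fragmented, recovered 3 correlated best with control 1, at 0.208. These correlations cannot decide whether the mice were paired. With the replicate block 0 genes were called and 2676 had an unadjusted p under 0.05.

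Turned values were 0.0603 for Gpnmb and 0.0387 for Itgax with library-size scaling, and 0.15 for Aif1, 0.055 for Lyz1, 0.0734 for Ctss, 0.65 for Cd5l and 0.17 for Itgax with the B cell level as a covariate. C1qb had -0.23 with trends removed. Without 1 mouse at a time the ranges were -0.10 to 0.74 for Fcgr1, -0.13 to 0.89 for Fcgr3, -0.0621 to 0.65 for Clec10a, -0.20 to 0.85 for C1qb, -0.59 to 0.42 for Itgax, -0.36 to 0.0545 for Mertk, -0.48 to 0.14 for Itgam, -0.47 to 0.19 for Aif1, -0.65 to 0.31 for Lyz2, -0.98 to 0.18 for Lyz1, -0.56 to 0.25 for Ctss, -3.31 to 0.56 for Cd5l and -0.17 to 0.14 for Gpnmb. The median over the 32 markers ranged from -0.33 to 0.19, over pan-macrophage genes from -0.48 to 0.22 and over resident genes from -0.28 to 0.39, both signs included, and with the B cell covariate these were 0.11, 0.064 and 0.31; it was 0.28 to 0.56 over lipid-associated and -1.36 to -0.62 over recruited genes. The cause of these turns was not tested. With 3 mice a group, the SE of a marker's log2 difference was 0.27 to 1.80, which limits what could be called.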
